A study of Rattus norvegicus with 6 samples.

Results

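The genes described here encode the machinery that docks, primes and fuses vesicles with membranes. They were taken as every gene whose platform symbol is a synaptotagmin, syntaxin, syntaxin-binding protein, Vamp, complexin, Sv2, synapsin, Rims or synaptogyrin, together with Nsf, Napa, Napb, Syp, Snap23, Snap29 and Snap91. This gave 61 genes with 95 probe sets, of 14217 named genes and 31042 probe sets measured. The probe set with the highest mean over the 6 arrays stood for its gene. Of the 61 genes, 41 (67.2%) passed the brightness filter and were tested, against 60.4% of all named genes.

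RNA came from retinal ganglion cells of 3 adult male Brown Norway rats, in which hypertonic saline injected into an episcleral vein had raised the pressure of 1 eye for 10 days. The fellow eye of each rat was the control, and ganglion cells on both sides had been labelled from the superior colliculus with Fluorogold. From each eye 2000 cells were collected by laser capture, their RNA was amplified, and 1 Affymetrix array was hybridised. The labels name the arrays by rat and by eye (OD, right, n = 3; OS, left, n = 3) and do not say which eye had raised pressure. All differences below are therefore OS minus OD within a rat, on the scale log2(intensity + 16), and have no known direction with respect to pressure.

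Fusion is carried out by SNARE proteins. A Vamp on the vesicle zips together with a syntaxin and a SNAP protein on the target membrane, synaptotagmins supply the calcium trigger, complexins clamp and activate the assembled bundle, and the ATPase NSF with its SNAP adaptors takes it apart again. Related family members serve the endosome, Golgi and plasma membrane of every cell. A ganglion cell releases glutamate from terminals in the brain, so a captured cell body holds RNA for a synapse that lies outside the eye, while bipolar, amacrine and photoreceptor cells release within the retina and use partly different members, such as complexin 3.

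The windows from 250 bases before to 50 after the annotated start of Cplx1, Syt3 and Napa are shown because these 3 were the members that had the same direction in all 3 rats and lay above background on at least 5 of 6 arrays. They are RefSeq sequence of build GRCr8, on the + strand in each case, at chr14:1328823-1329122 for Cplx1, chr1:104017874-104018173 for Syt3 and chr1:85915185-85915484 for Napa. Capitals mark GC boxes (GGGCGG on either strand) and the cyclic AMP response element (TGACGTCA, which reads the same on both strands).
Cplx1: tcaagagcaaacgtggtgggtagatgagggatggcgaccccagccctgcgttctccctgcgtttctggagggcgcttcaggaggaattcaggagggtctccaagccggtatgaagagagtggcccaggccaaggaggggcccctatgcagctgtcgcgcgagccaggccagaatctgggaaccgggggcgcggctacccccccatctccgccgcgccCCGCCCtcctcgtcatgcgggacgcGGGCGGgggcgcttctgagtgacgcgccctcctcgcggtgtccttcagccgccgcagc
Syt3: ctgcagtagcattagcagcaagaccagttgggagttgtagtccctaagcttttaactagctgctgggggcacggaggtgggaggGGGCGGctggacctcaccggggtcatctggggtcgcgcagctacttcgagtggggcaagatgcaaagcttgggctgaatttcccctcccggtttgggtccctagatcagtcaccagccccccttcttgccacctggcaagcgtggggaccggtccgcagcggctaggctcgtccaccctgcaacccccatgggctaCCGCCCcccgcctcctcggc
Napa: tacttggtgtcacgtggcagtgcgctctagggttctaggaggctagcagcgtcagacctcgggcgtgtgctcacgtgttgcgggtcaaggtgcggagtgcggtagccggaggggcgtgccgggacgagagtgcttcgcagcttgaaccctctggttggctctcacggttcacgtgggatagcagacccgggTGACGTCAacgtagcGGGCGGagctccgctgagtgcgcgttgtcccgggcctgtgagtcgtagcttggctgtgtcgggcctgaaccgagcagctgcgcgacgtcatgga

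The Cplx1 and Syt3 windows each held 2 GC boxes and the Napa window 1, and all 3 windows were rich in G and C, at 68.7% for Cplx1, 64% for Syt3 and 64.7% for Napa. The table of promoters held a window for 48 of the 61 genes. A GC box stood in 34 of them (70.8%), against 62.9% of the windows of all tested genes and 34.9% of all 27457 windows. The response element stood in 3, those of Napa, Syn1 and Vamp1 (6.2%, against 3.3% of tested genes and 1.9% of all windows), and the E box CAGCTG in 15 (31.2%, against 16% and 15.1%). The TATA box TATAAA stood in 1, that of Stxbp3 (2.1%, against 7.0% and 14.3%). No marked stretch overlaps another. A match describes letters in the window only, since binding was not measured.

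The arrays carried a wide background. The limit of signal over background, set from 27 control probe sets for RNAs of bacteria at their 95th percentile, ran from 261 to 591 between arrays, and 34.8% to 58.1% of probe sets exceeded it. Among the 41 tested members the number above the limit was 34, 25 and 33 in OD (rats 1, 2 and 3 in this order, here and below) and 29, 23 and 26 in OS. On all 6 arrays 10 of the 41 were above it, where 26.0% of all tested genes were. Of the 14 ganglion cell markers measured, 10 exceeded the limit on 5 or 6 arrays, among them Thy1, Rbpms, Nefh, Nefm and Slc17a6, and none stayed below it on every array. Amacrine markers exceeded it on 5 or 6 arrays for 5 of 10 genes and photoreceptor markers for 7 of 14. Genes listed for other retinal cells thus gave signal, and the cells it came from were not tested.

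No member passed the test between the eyes. Of the 41 tested members 0 passed an adjusted p of 0.05 in the limma fit, in which 0.0129% of all tested probe sets passed, and the smallest adjusted p among members was 0.698. An unadjusted p under 0.05 was reached by 2 members, Cplx2 and Napa, in opposite directions; 6.94% of all tested genes reached it. The mean was lower in OS for 28 members and higher for 13, so that 68.3% were lower; of all tested genes 53.7% were lower and 46.3% higher. The median difference was -0.40, beside -0.07 for all tested genes. By rat the member medians were -0.12, -0.40 and -0.22, and those of all genes were -0.11, -0.05 and 0.01. In RNA pooled from captured cells, fewer cells of a type and less RNA per cell cannot be told apart.

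Few members kept their direction from rat to rat. Lower in OS in all 3 rats were Cplx1, Syt3 and Snap29, which is 3 of 41 where 15.6% of all tested genes were. Higher in OS in all 3 rats were Napa, Rims1 and Syt7, again 3 of 41, where 13.1% of all tested genes were. With a mean of at least 2-fold in addition, 1 member (Snap29) was lower and 3 were higher, against 8.60% and 6.57% of all tested genes. The other 35 members (85.4%) had mixed signs. Rat 1 stood against the other rats for 13 of them, rat 2 for 12 and rat 3 for 10. The SD of the difference over rats had a median of 1.44 among the members and 1.10 among all tested genes, and 27 members had an SD above 1, so a difference of 2-fold lay within the spread for most of them. The values of the 2 eyes did not overlap for Cplx1, Rims1 and Syt7 among the tested members; among all tested genes OS lay wholly below OD for 5.70% and wholly above it for 4.79%.

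**Figure D1:**
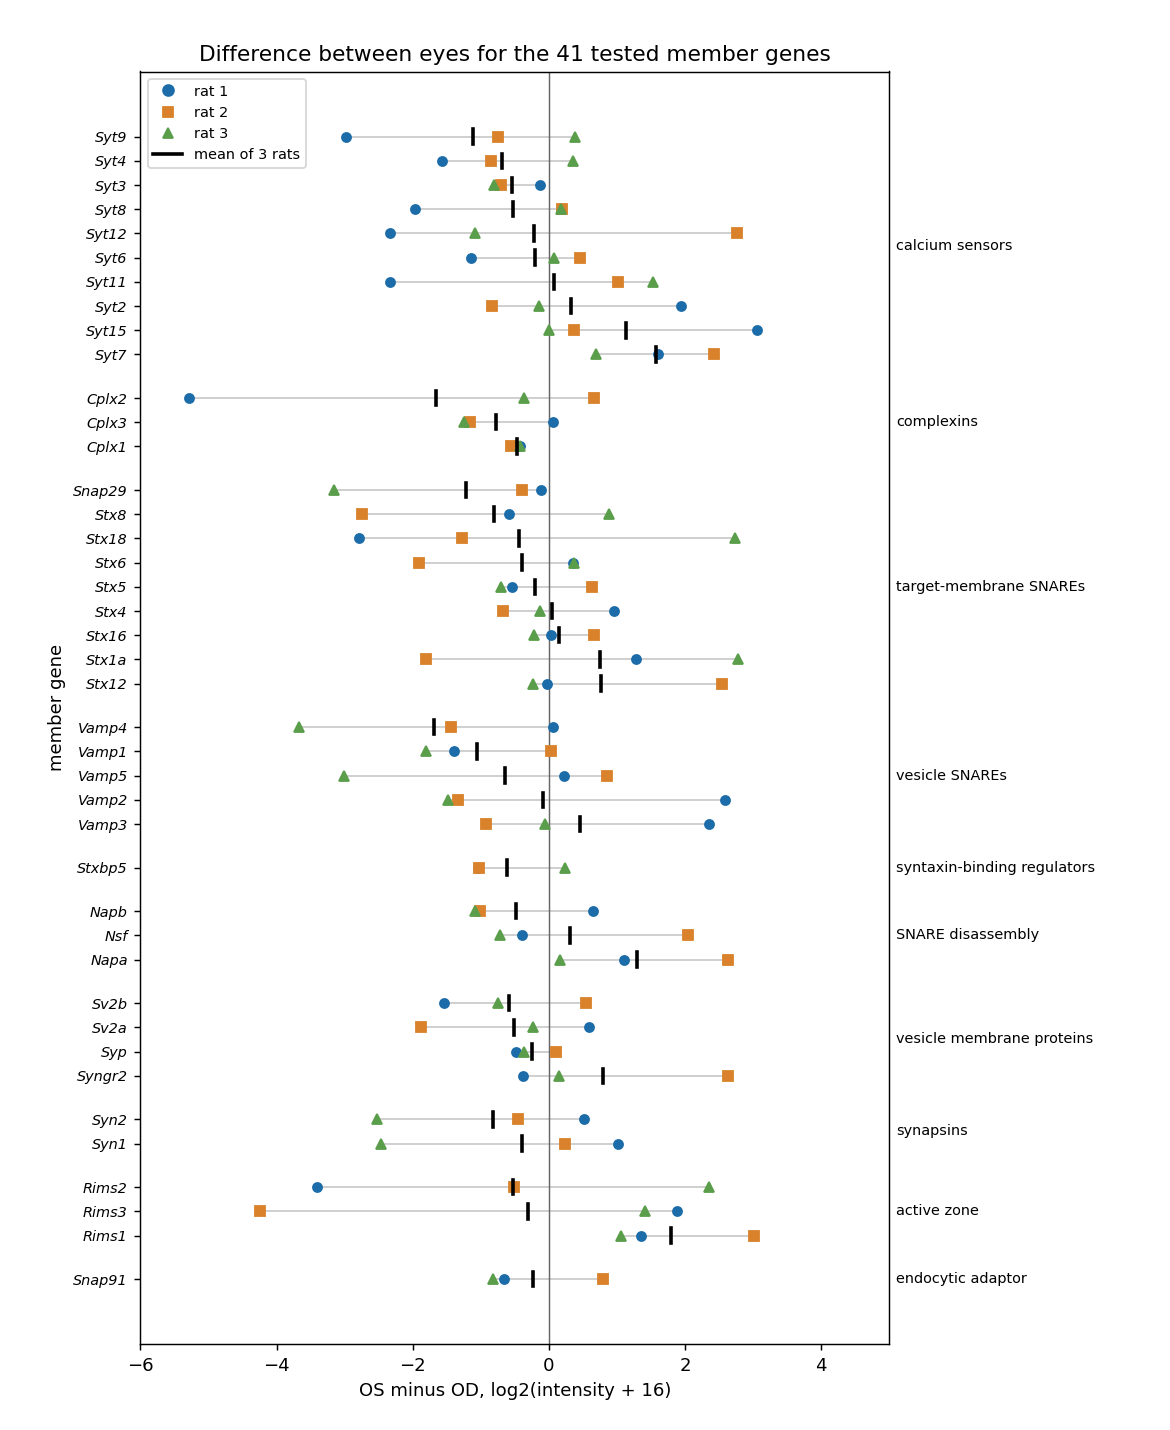
Difference between the eyes (OS minus OD, log2(intensity + 16)) of each of the 41 tested members, grouped by role; coloured points are the 3 rats and the black bar is their mean. The points of most genes lie on both sides of 0, and those of Cplx1 nearly coincide, at -0.43, -0.56 and -0.42.

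Complexins, small proteins that bind the assembled SNARE bundle, were lower in OS on average for 3 of 3 genes, and Cplx1 gave the steadiest difference of the 41 tested members. Its intensity in OD was 2469, 2528 and 3092, and in OS 1824, 1712 and 2305. Every OS array lay below every OD array. The difference was -0.47 ± 0.08 (SD, n = 3 rats, limma adjusted p = 0.854), a fold of 1.39 that limma, pooling the spread over probe sets, did not call. A second, dimmer Cplx1 probe set, above the limit on 2 of 6 arrays, gave 2.18, 0.77 and -3.10 in the 3 rats. Cplx2, the closest relative of Cplx1, read 2660, 2062 and 2405 in OD and 53.1, 3276 and 1875 in OS. The OS array of rat 1 alone was low, below its background limit, and the other 5 arrays lay within 1875 to 3276. Its difference of -1.66 ± 3.18 (adjusted p = 0.698) became 0.15 without rat 1. Cplx3, the complexin of ribbon synapses and of some amacrine cells, read 739, 690.4 and 2132 in OD and 769.5, 299.6 and 890.4 in OS. It was lower in OS in rats 2 and 3 and level in rat 1, with a difference of -0.78 ± 0.73 (adjusted p = 0.828), and its second probe set was lower in all 3 rats, by -3.12, -0.27 and -0.87.

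Synaptotagmins were the largest family, with 16 genes measured and 10 tested, and they had no common direction. The mean of 6 was below 0 and that of 4 above 0, with a median of -0.21 and a range from -1.12 (Syt9) to 1.57 (Syt7). Syt3, a calcium-binding member found mainly at the plasma membrane, read 1274, 1452 and 1057 in OD and 1166, 885 and 602 in OS. It was lower in OS within each rat although the eyes overlapped between rats, by -0.54 ± 0.36 (adjusted p = 0.866), and its dimmer probe set, above the limit on 1 array, had a mean of 0.97. Syt4, a member of dense-core vesicles and the Golgi that does not bind calcium in the usual way, read 3079, 1594 and 3350 in OD and 1026, 877 and 4317 in OS. It was lower in OS in rats 1 and 2 and higher in rat 3, with -0.69 ± 0.98 (adjusted p = 0.810).

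Syt7, a slow, high-affinity calcium sensor, read 235, 88.8 and 287 in OD and 745, 545 and 478 in OS, with every OS array above every OD array. All 3 OD arrays and the OS array of rat 2 lay below their limits, so the size of the fitted difference, 1.57 ± 0.86 (adjusted p = 0.796), is uncertain. Averaged over its 3 probe sets it was 0.32. Its probe set is of the kind that Affymetrix marks as open to cross-hybridisation, and of the other Syt7 probe sets 1 had a higher mean and 1 a lower. Syt1, the main fast sensor at most synapses, was too dim to be tested: its intensity was 326, 28.0 and 240.2 in OD and 690.2, 40.6 and 61.4 in OS, above the limit only in rat 1. Syt2, the sensor of fast-firing neurons, read 107, 405 and 347 in OD and 455, 221 and 313 in OS. It exceeded the limit on 2 of 6 arrays and differed by 0.32 ± 1.44 (adjusted p = 0.964). The remaining tested synaptotagmins, Syt6, Syt8, Syt9, Syt11, Syt12 and Syt15, exceeded it on 2 to 3 arrays each, and the remaining untested ones, Syt5, Syt10, Syt13, Syt16 and Syt17, on 1 or 2. Among the untested, Syt13 was higher in OS on every array pair, at 107, 177 and 12.8 in OD and 378, 334 and 594 in OS, but exceeded the limit on 1 array only.

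Target-membrane SNAREs comprised 14 genes, 9 of them tested, with 5 lower and 4 higher means and a median of -0.20. The 3 that exceeded the limit on all 6 arrays work away from the synapse. Stx16, of the Golgi, read 1085, 1013 and 1719.6 in OD and 1105, 1608 and 1474 in OS, and differed by 0.15 ± 0.45 (adjusted p = 0.964). Stx5, of the path from the endoplasmic reticulum to the Golgi, read 1923, 1691 and 1735 in OD and 1321, 2640.2 and 1056 in OS, with -0.20 ± 0.73 (adjusted p = 0.948). Stx4, of the plasma membrane, read 289.9, 1013 and 960.5 in OD and 574, 628 and 875 in OS, with 0.05 ± 0.83 (adjusted p = 0.992). In none of these 3 did the eyes separate.

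Stx1a, the syntaxin of the synaptic vesicle fusion complex, read 132, 1209 and 43.2 in OD and 343, 335 and 390.0 in OS. It exceeded the limit only on the OD array of rat 2, so its difference of 0.75 ± 2.33 (adjusted p = 0.916) has little meaning as a size, and its other probe set was lower in OS in all 3 rats, by -1.61 ± 0.66. Snap29, a SNAP protein of endosomes and autophagosomes, read 527, 414 and 384 in OD and 484, 310.5 and 29.0 in OS. Its difference of -1.22 ± 1.68 (adjusted p = 0.851) came mainly from rat 3 (-3.15), since rats 1 and 2 gave -0.12 and -0.40. Without rat 3 it was -0.26. This Snap29 probe set exceeded the limit on 3 of 6 arrays. The other Snap29 probe sets gave means of 0.25 and -0.12, and averaged over all of them the difference was -0.37. Snap23, the SNAP protein of non-neuronal secretion, Stx3, the syntaxin of ribbon synapses, and Stx7, Stx11 and Stx17 were not tested; each exceeded the limit on 1 to 3 arrays. Stx6, Stx8, Stx12 and Stx18, tested members of endosomes, Golgi and endoplasmic reticulum, had differences from -0.81 to 0.76 with SDs of 1.32 to 2.85.

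Vesicle SNAREs numbered 7, of which 5 were tested, with means below 0 for 4 and above 0 for 1. Vamp1, which drives release in fast-firing neurons, read 1542, 755 and 1642 in OD and 578, 769 and 456 in OS. It was above the limit on all 6 arrays, lower in OS in rats 1 and 3 and level in rat 2, with -1.06 ± 0.96 (adjusted p = 0.781). Its other probe sets gave means of 0.25 and 1.11, and the mean over all 3 of its probe sets was 0.10, so the direction rests on the probe set. Vamp2, the main vesicle SNARE of brain synapses, read 31.4, 1456 and 554 in OD and 268, 565 and 189 in OS. The rats went different ways, at 2.59, -1.34 and -1.48, and the mean of -0.08 (SD 2.31, adjusted p = 0.992) was 0.05 with an offset of 1. Vamp4, of the trans-Golgi network, read 1043, 455 and 1571 in OD and 1086, 158 and 109 in OS; it lay below the limit in both eyes of rat 2 and in OS of rat 3, and the difference was -1.68 ± 1.88 (adjusted p = 0.730). Vamp3, of recycling endosomes, differed by 0.46 ± 1.70, and Vamp5, a muscle and endothelial form, by -0.64 ± 2.08. The lysosomal Vamp7 and the endosomal Vamp8 were not tested and exceeded the limit on 1 and 2 arrays.

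**Figure D2:**
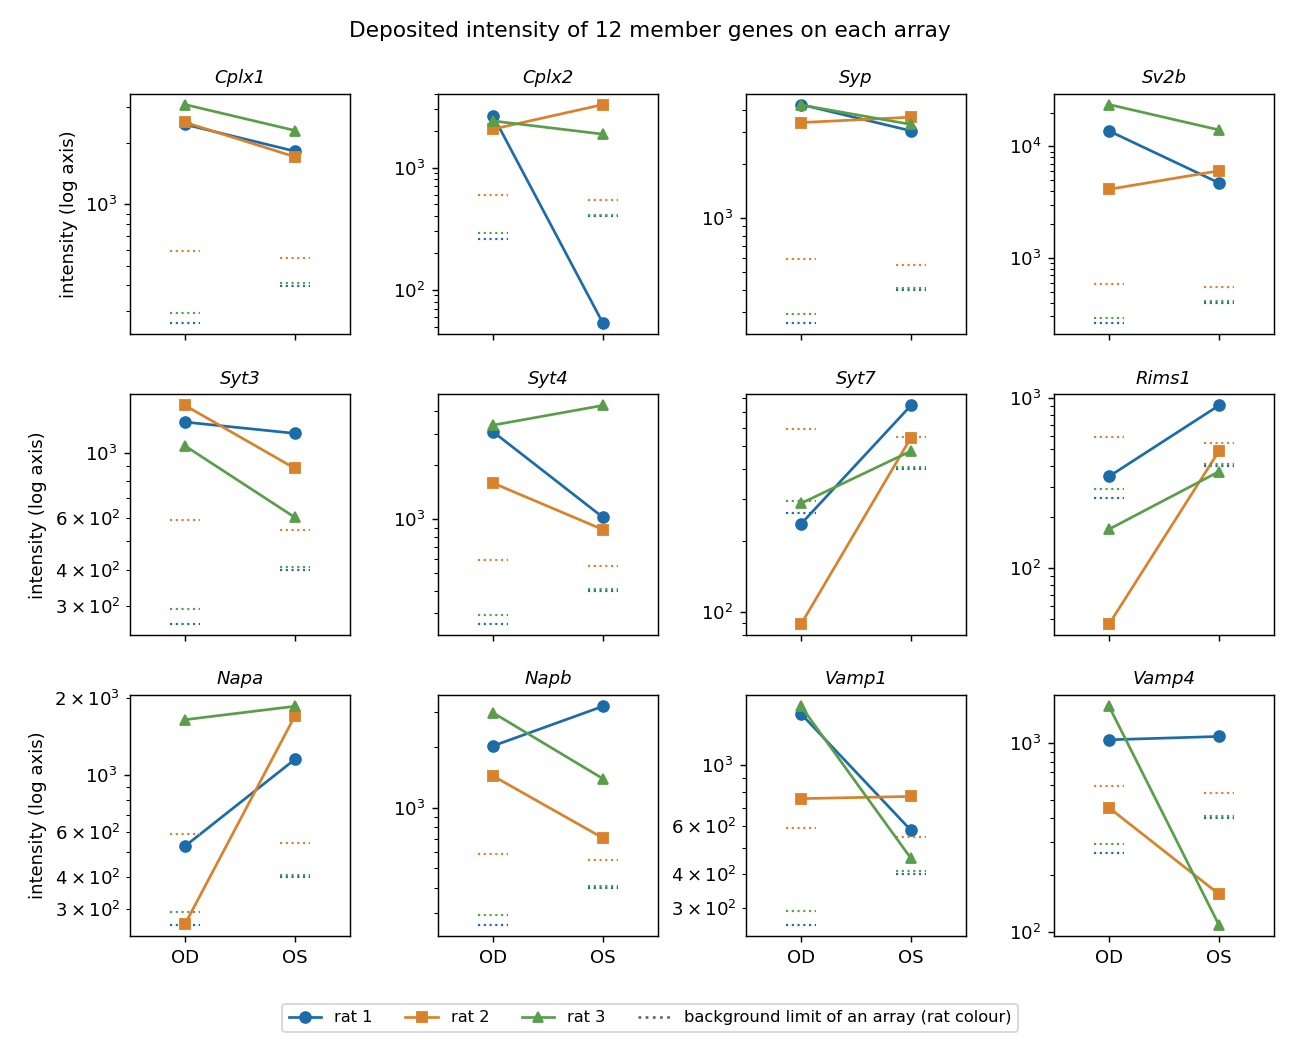
Deposited intensity (log axis) of 12 members on the OD and OS arrays; each line joins the eyes of 1 rat, and dotted ticks give the background limit of each array in the colour of its rat. Cplx1, Syp and Sv2b stay far above the limit on all 6 arrays, and Cplx2 is low on the OS array of rat 1 alone. Syt7 and Rims1 lie near or below the limit except on the OS array of rat 1.

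Proteins that take spent SNARE complexes apart went in different directions. Napa, which encodes the adaptor alpha-SNAP, read 529, 263 and 1649 in OD and 1155, 1708 and 1860.3 in OS. The left eye had the higher value in each rat, by 1.10, 2.63 and 0.17, although the OD array of rat 3 exceeded 1 of the OS arrays, and the mean of 1.30 ± 1.24 did not pass (adjusted p = 0.717). In rat 2 the OD array lay below its limit of 591. Napb, the brain form beta-SNAP, read 2033, 1441 and 2976 in OD and 3206, 707 and 1396 in OS, with -0.48 ± 0.98 (adjusted p = 0.867); it was higher in OS in rat 1 and lower in rats 2 and 3. Nsf, the ATPase itself, read 591, 28.7 and 569 in OD and 447, 169 and 340.0 in OS, with 0.31 ± 1.51 (adjusted p = 0.969), and was -0.55 without rat 2. Of the syntaxin-binding regulators only Stxbp5 (tomosyn, which ties up syntaxin in a dead-end complex) was tested, at -0.61 ± 0.73 (adjusted p = 0.905). Means of 0.52 and -0.69 came from the other Stxbp5 probe sets, each of which had mixed signs over the rats. Stxbp2, Stxbp3 and Stxbp6 exceeded the limit on 2, 0 and 2 arrays.

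Of the 7 membrane proteins of the vesicle 4 were tested, and Syp and Sv2b exceeded the limit on all 6 arrays. Syp, which encodes synaptophysin, read 4266, 3388 and 4242 in OD and 3049, 3629.8 and 3309 in OS. The 6 arrays lay within 3049 to 4266, and the difference of -0.25 ± 0.31 (adjusted p = 0.922) was lower in rats 1 and 3 and slightly higher in rat 2. Sv2b, a vesicle glycoprotein that in the retina is known from photoreceptor and bipolar terminals, read 13758, 4132 and 23704 in OD and 4709, 6045 and 14050.2 in OS. It was lower in OS in rats 1 and 3 and higher in rat 2, with -0.58 ± 1.06 (adjusted p = 0.813), and both arrays of rat 3 exceeded the other 4. Sv2a, the broadly expressed form and the binding site of the drug levetiracetam, read 794, 913 and 736 in OD and 1204, 236 and 625 in OS, with -0.51 ± 1.26 (adjusted p = 0.901); without rat 2 it was 0.18. Syngr2, a synaptogyrin of non-neuronal vesicles, differed by 0.80 ± 1.61. Sv2c, Syngr1 and Syngr3 were not tested. Syngr3 was lower in OS in all 3 rats, with 138, 335 and 1000.0 in OD and 47.9, 34.9 and 35.4 in OS, but exceeded the limit on 1 array only.

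Synapsins, which tether vesicles in the reserve pool, had lower means in OS at the brightest probe set of both tested genes, with the strongest difference in rat 3. Syn1 read 447, 918 and 904 in OD and 926, 1089.8 and 149.8 in OS, and Syn2 read 326, 1174 and 276 in OD and 472, 856 and 35 in OS. The OS array of rat 3 was the lowest of the 6 for both genes. The differences were -0.40 ± 1.84 for Syn1 and -0.82 ± 1.55 for Syn2 (adjusted p = 0.933 and 0.884), and without rat 3 they were 0.63 and 0.03. Their other probe sets were all higher in OS in rat 3: by 0.97 for Syn1, and by 1.39 and 0.74 for Syn2, whose means over the rats were 0.05 and -0.67. Syn3 stayed below the limit on every array.

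Active zone scaffolds of the Rims family, which place vesicles beside calcium channels, were all tested, and each exceeded the limit on 2 to 4 arrays. Rims1 read 346, 46.9 and 169.6 in OD and 907, 489 and 370.4 in OS, with every OS array above every OD array. Its mean of 1.80 ± 1.05 was the highest of the 41 tested members (adjusted p = 0.788), but only 1 array of each eye exceeded the limit, so its size is uncertain. Rims2 (-0.52 ± 2.87) and Rims3 (-0.31 ± 3.40) went different ways in different rats. Snap91, the clathrin adaptor AP180 that retrieves vesicle membrane, read 1427, 72.1 and 491 in OD and 894, 137 and 272 in OS. Both arrays of rat 2 were low, and the difference was -0.23 ± 0.89 (adjusted p = 0.972); without rat 3 it was 0.06.

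Lists by site of action held 24 of the 41 tested members. Of 18 measured genes of presynaptic release, 13 were tested, 10 lower and 3 higher in OS by their mean, with a median of -0.47. Of 18 measured genes of general trafficking, 11 were tested, 7 lower and 4 higher, with a median of -0.40. By rat the release medians were 0.51, -0.45 and -0.36 and the trafficking medians 0.03, -0.68 and -0.22. By limma 0 genes passed in either list, 1 gene of release (Cplx2) and 0 of trafficking had an unadjusted p under 0.05, and the difference between the lists was not tested.

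**Figure D3:**
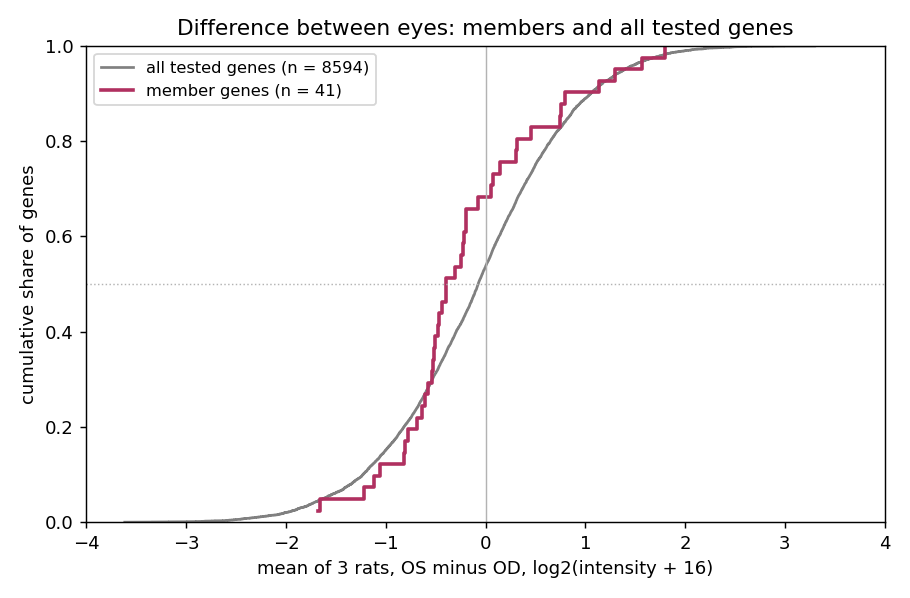
Cumulative share of genes (vertical axis) by mean difference between the eyes (OS minus OD, log2(intensity + 16), horizontal axis) for the 41 tested members and for all 8594 tested genes. The curve of the members crosses the middle at -0.40 and that of all genes at -0.07.

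Partners of these genes outside the families were also measured: 51 of a list of 56 for priming, vesicle filling and vesicle retrieval, with 34 tested. By their mean 25 were lower and 9 higher in OS, 0 passed by limma in either direction (0.0129% of all tested probe sets did), 5 lower and 1 higher had an unadjusted p under 0.05, and the median was -0.44. Of all tested genes 53.7% were lower by their mean and 6.94% had an unadjusted p under 0.05, with a median of -0.07. Snap25, the SNAP protein of the neuronal fusion complex, had the smallest p. It read 6006, 1546 and 8032 in OD and 1191, 560.3 and 2514 in OS, lower in OS in 3 of 3 rats, by -1.81 ± 0.46 (adjusted p = 0.282). Bsn, which encodes the active zone scaffold bassoon, was lower in 3 of 3 rats by -0.94 ± 0.16 (adjusted p = 0.660), and Cadps, a priming factor of dense-core vesicles, in 2 of 3 by -1.33 ± 1.87 (adjusted p = 0.619).

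Among the genes of vesicle filling, those with the smallest p were the glutamate transporter gene Slc17a6 (-0.62 ± 0.96) and the proton pump subunit genes Atp6v0d1 (-1.32 ± 0.64) and Atp6v1b2 (0.72 ± 1.78). Among those of retrieval they were Dnajc6, which encodes the clathrin-uncoating cofactor auxilin (-2.34 ± 2.60, adjusted p = 0.381), the clathrin heavy chain gene Cltc (-2.07 ± 2.33) and the endophilin gene Sh3gl1 (1.74 ± 2.24). Dnajc6 and Cltc were lower and Sh3gl1 higher in 3 of 3 rats, each with 1 array far below the rest: the OS array of rat 3 for Dnajc6 (96.5), the OS array of rat 1 for Cltc (70.3) and the OD array of rat 2 for Sh3gl1 (27.1).

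By limma 0 ganglion cell and 0 amacrine markers passed between the eyes (smallest adjusted p 0.242 in each list), and 4 of each list, all lower in OS, had an unadjusted p under 0.05. The mean was below 0 for 12 of the 13 tested ganglion cell markers, and 8 of these were lower in every rat, where 53.7% and 15.6% of all tested genes were. Their median was -0.78, and the summed intensity of the list was 25222 to 34710.0 on the OD and 14297 to 20252 on the OS arrays. Amacrine markers, 4 of 6 tested lower in all 3 rats, had a median of -1.22. Gad1, Pax6, Calb2 and Tfap2b were above the limit on all 6 arrays and Chat and Tfap2a on none. Of the 6 tested, Slc6a9 and Th had higher means in OS, by 0.72 and 0.09, each with mixed signs over the rats. The summed intensity of the amacrine list was 27963 to 72852 in OD and 12619 to 24454 in OS. Bipolar markers had a median of 0.24 over 5 tested genes, all with a higher mean in OS, and sums of 9216 to 30243 in OD and 14853 to 61342 in OS. Most of these sums was Otx2, which read 7781 to 59255, while every other gene of the list read at most 977.1. For the 12 tested photoreceptor markers the median was 0.07, with sums of 14591 to 49154 in OD and 13382 to 32752 in OS. Pigment epithelium markers, 6 of 7 tested with a mean below 0, had a median of -1.14 and sums of 6996 to 37528 in OD and 2448 to 6082 in OS, which did not overlap, and 0 passed (smallest adjusted p 0.371; 3 lower at an unadjusted p under 0.05). By rat their medians were -2.67, 0.06 and -0.65, and 2 of the 7 were lower in all 3 rats. The highest OD sum was that of rat 3, where Pmel read 17031 and Tyrp1 10420. The median was -0.39 for Mueller glia and astrocyte markers, 0.29 for microglia and 0.14 for endothelial cells, and the sums of these lists overlapped between the eyes. The part of these cell types in the member values was not tested. The beta-actin control signal from the 3' end over the 5' end was also higher in the left eye of every rat, with a log2 difference of 1.40 ± 0.58, and the same difference for Gapdh was -0.59 ± 2.08; their part was not tested either.

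**Figure D4:**
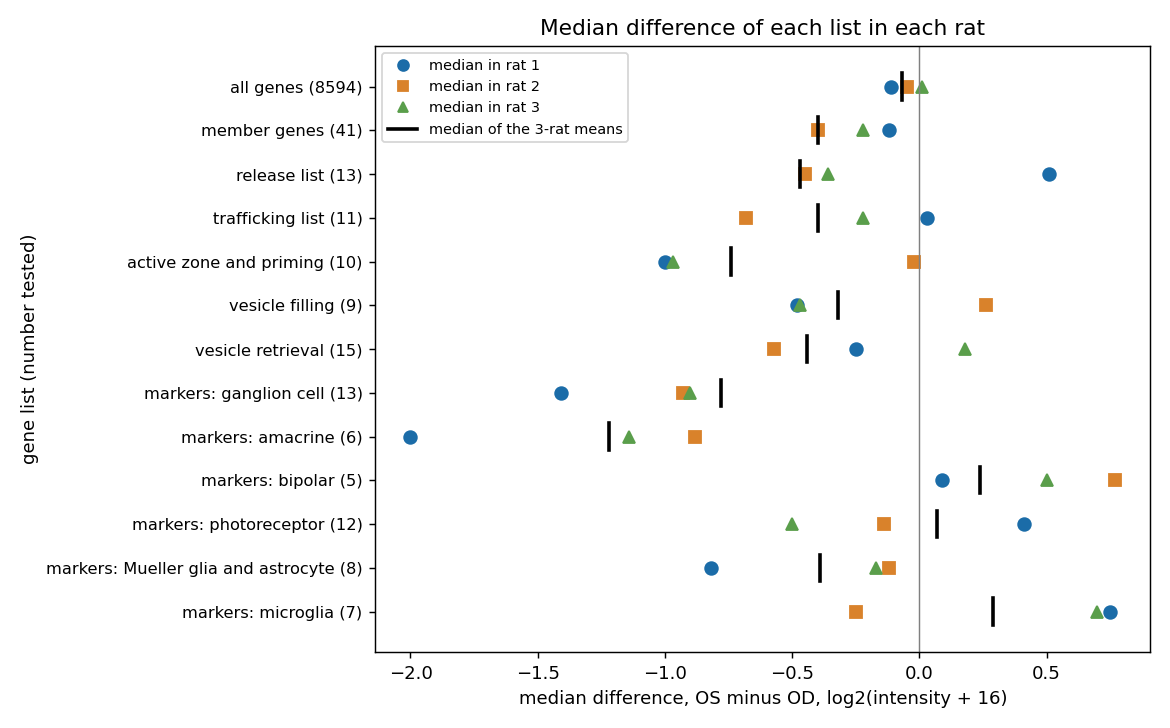
Median difference between the eyes (OS minus OD, log2(intensity + 16)) of each list shown, in each rat (coloured points) and of the means over rats (black bar), with the number of tested genes in brackets. The pigment epithelium and endothelial lists, with medians of -1.14 and 0.14, are not shown. The members lie between all genes and the ganglion cell markers, at -0.40 against -0.07 and -0.78.

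Between rats, too, no member passed. In the F test of the rat terms in the same fit 0 of 41 members had an adjusted p under 0.05, where 2.51% of all tested probe sets and 1.29% of all tested genes had, and 4 members had an unadjusted p under 0.05, against 10.9% of all tested genes. These 4 were Sv2b, Cplx2, Syt4 and Snap91, and they were named after their values were seen. Sv2b had the smallest adjusted p, 0.155, with both arrays of rat 3 above those of rats 1 and 2. Without rat 1 it passed (adjusted p of the F test = 0.00302), as did 620 of all 15521 tested probe sets. It was the only member that passed in any of the alternatives to this test. Its 2 dimmer probe sets, above the limit on 3 and 0 arrays, did not have this order. In rat 3 they read 28.9 and 102.0 in OD and 423.1 and 25.7 in OS. Syt4 had an order like that of the brightest Sv2b probe set, with both arrays of rat 3 above the other 4 (adjusted p = 0.322). Its dimmer probe set, above the limit on 0 arrays, did not, at 90.7 in OD and 34.4 in OS of rat 3. The low values of Snap91 lay in rat 2 (adjusted p = 0.323), and the low value of Cplx2 on 1 array of rat 1 (adjusted p = 0.252).

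Several probe sets of a gene often disagreed. Of the 41 tested members 21 had more than 1 probe set, and in 9 of these all probe sets had the same sign of the mean difference. All 3 probe sets of Vamp5 and both of Cplx1, Cplx3, Syt4 and Vamp2 had negative means, for example. Some of these lay near 0: -0.05 for the second Cplx1 probe set, which was higher in OS in rats 1 and 2, and -0.12 for that of Syt4. The same held for 1 Vamp5 probe set (-0.11) and the brightest of Vamp2 (-0.08), while both of Cplx3 gave -0.78 and -1.42. Stx1a, Syt3, Syn1, Stx6 and Vamp4 each had a second probe set of the opposite sign. A gene-level difference here describes its brightest probe set.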

How the data were processed

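The deposited values are 1 intensity per probe set and array on a linear scale, with no detection calls. The submitters' processing notes name GCOS, with no version or settings in the sources used here. After 2% was trimmed from each end, every array had a mean of 500.1, so the values were taken as already scaled, and total RNA per eye cannot be recovered. Depth does not apply to arrays; their number limits the precision. Controls (57 of 31099 probe sets) were left out, and only probe sets with 1 platform symbol (20826) were named; 436 had several and 9780 none.

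An offset of 16 was added before log2, so folds of dim genes are understated. The 15521 probe sets at or above the median brightness (8594 genes) entered limma 3.58.1 in R 4.3.3, with rat as a fixed block, an intensity trend, two-sided tests and Benjamini-Hochberg adjustment over all of them at 0.05. Residual degrees of freedom were 2 and prior ones 19.4, so each p rests mostly on spread pooled over probe sets. The F test between rats came from the same fit, with the eyes of a rat as its repeats. The labels pair the eyes, which come from 1 animal; within rats their deviations from the eye means correlated at 0.109, 0.122 and 0.326 over tested probe sets, while those of rats 1 and 2 correlated across animals at 0.088 and 0.104, so the pairing of these rats rests on the labels. Tested on simulated data of 15521 probe sets, the fit found 0%, 20% and 70% of changes between eyes that were set at 2-fold, 4-fold and 16-fold, and 0%, 8% and 56% of those between rats.

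Members and lists were chosen with earlier results of these data known. By rule, values on all arrays are given for tested members with 1 direction in all rats and at least 2-fold, and for measured genes of the release core; Cplx3, Syt2, Syt3, Syt4, Syt13, Stx4, Stx5, Stx16, Vamp4, Sv2b and Syngr3 were added after their values were seen. Of the partner genes, the 3 with the smallest p in each group are named. Alternatives were the offset, quantile normalization, the filter, the block, the prior variance, the mean over probe sets and leaving out each rat.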

Additional observations from a re-analysis of the deposited data

How the results depend on the processing

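No member passed between the eyes in any alternative; the smallest adjusted p of a member ran from 0.116 (without rat 2) to 0.953 (no replicate block). Over all probe sets, 2 passed. An offset of 1, quantile normalization, the filter at the 75th percentile, no replicate block, a random replicate block and no trend each gave 0. A robust prior gave 1, an offset of 64 gave 8, no filter gave 9, and leaving out 1 rat gave 18 to 59. The median member difference of -0.40 was -0.23 with no filter, over 61 genes, and -0.42 to -0.18 with 1 rat left out, the last without rat 1. With the probe sets of each gene averaged it was -0.26. The medians of all tested genes were -0.02 with no filter, -0.02 without rat 1 and -0.03 with probe sets averaged. Between rats, 390 probe sets passed, against 250 after quantile normalization, 152 with the filter at the 75th percentile, 0 without the trend, and 6 (without rat 3) to 620 (without rat 1) with 1 rat left out. Members numbered 0 to 1 there, the 1 being Sv2b without rat 1.

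Of 200 values of the 16 tested genes named by the rule, 187 kept their sign and side of the threshold and 13 changed sign; the cause was not tested. Changes of the filter, the block, the trend and the prior variance alter only the p, so no sign could change under them. None of the 16 genes came near the threshold in any alternative (smallest limma adjusted p 0.116). The count of 187 is therefore no measure of stability. Vamp2 was 0.05 with an offset of 1. Averaged over all probe sets of the gene, Stx1a was -0.43, Syn1 0.30 and Vamp1 0.10. With 1 rat left out the ranges that include both signs were -2.82 to 0.15 for Cplx2, -0.55 to 0.83 for Nsf, -0.74 to 0.06 for Snap91, -0.26 to 2.03 for Stx1a, -1.06 to 0.18 for Sv2a, -1.11 to 0.63 for Syn1, -1.48 to 0.03 for Syn2 and -1.41 to 0.62 for Vamp2. The number of rats limits the precision of every value, and for many members so does signal near the background limit.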
